A study of Homo sapiens with 4 samples.

Results

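The apolipoprotein L family was followed in OVCAR5, a human ovarian carcinoma cell line, through its members APOL1, APOL2, APOL3 and APOL6. These 4 genes were picked by name among the 36602 genes of the deposited feature table, which lists 6 APOL genes in all. The choice was made with earlier results of these data known, and APOL4 and APOL5, left out, had little or no signal. OVCAR5 cells had been cultured with the supernatant of tumor cells grown together with T cells, undiluted or diluted 5, 25, 125 or 625 times, or without it, for 2, 6, 12 or 24 h. Each of the resulting 24 conditions was 1 culture, and all were measured in 1 pool by droplet-based single-cell RNA sequencing with antibody-borne hashtags. No label links a pair of hashtags to a dose or a time. Each pair is therefore treated as a sample of unstated condition, called a hashtag sample and named by its tags (HTO7/HTO8), so the values below describe how the members varied over the 24 samples and no conditions are compared. There are no replicates, and all intervals are 95% intervals that cover counting error only.

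APOL proteins are named after apolipoproteins but are best known in innate defence. APOL1 is secreted, circulates on high-density lipoprotein particles and lyses trypanosomes by forming pores in their membranes. APOL2, APOL3 and APOL6 lack that secretory route and stay inside the cell, where APOL3 dissolves the membranes of cytosolic bacteria in a detergent-like manner and APOL6 has a BH3-like stretch and has been tied to cell death. Genes of the family are induced by interferons, among them interferon gamma, a main product of activated T cells.

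The members lie on chromosome 22 (GRCh38, GENCODE 29). APOL6 (ENSG00000221963) spans 35648395 to 35668409 on the plus strand. APOL3 (ENSG00000128284) spans 36140330 to 36166177 on the minus strand, 472 kb further on. APOL2 (ENSG00000128335), at 36226203 to 36239954 on the minus strand, starts 60.0 kb beyond APOL3. APOL1 (ENSG00000100342), at 36253010 to 36267530 on the plus strand, is 13.1 kb from APOL2. No annotated gene overlaps any of the 4. Family members resemble each other in sequence, so shared stretches were counted: of the 447 stretches of 54 bases in the last 500 bases of each gene's longest transcript, 5 of APOL1, 5 of APOL3 and 0 of APOL2 or APOL6 also occurred in another family member.

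All 4 members varied widely over the hashtag samples. Levels are given as CPM, the UMIs (unique molecular identifiers, each standing for 1 captured RNA molecule) of a gene in each 1e6 UMIs of a sample, and a gene's range is its log2(CPM + 10) in its highest sample minus that in its lowest. The 4 members each had a range of 4-fold or more, as did 238 of the 5767 genes tested, those averaging 20 CPM or more (4.13%), and 1504 genes ranged by 2-fold or more (26.1%). The range was 3.42 log2 units for APOL6, 3.15 for APOL3, 2.83 for APOL1 and 2.73 for APOL2, against a median of 0.74 over all tested genes. In the order of ranges APOL6 stood at rank 60, APOL3 at 78, APOL1 at 105 and APOL2 at 113. The members were chosen with earlier results of these data known, so these counts and ranks are a description. APOL3 passed the minimum mean only through its higher samples, its median being 13.4 CPM, so it had to vary to be counted. APOL4 had 26 UMIs in all samples together, with 1.87 CPM in its highest sample (7 UMIs in HTO8/HTO10). APOL5 had 0 UMIs, which allows up to 0.041 CPM over the hashtag samples together.

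The same 9 hashtag samples were the lowest 9 for each of the 4 members: HTO1/HTO10 to HTO7/HTO10, HTO4/HTO8 and HTO2/HTO9. The lowest of the other 15 samples exceeded the highest of these 9 by a ratio of 1.74 (95% interval 1.41 to 2.16) for APOL1, 1.81 (1.37 to 2.39) for APOL2, 3.26 (1.61 to 7.01) for APOL3 and 1.69 (1.56 to 1.83) for APOL6. The samples were ordered by the measured levels themselves, so this is a description and the 2 sides are not groups of the study.

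**Figure D1:**
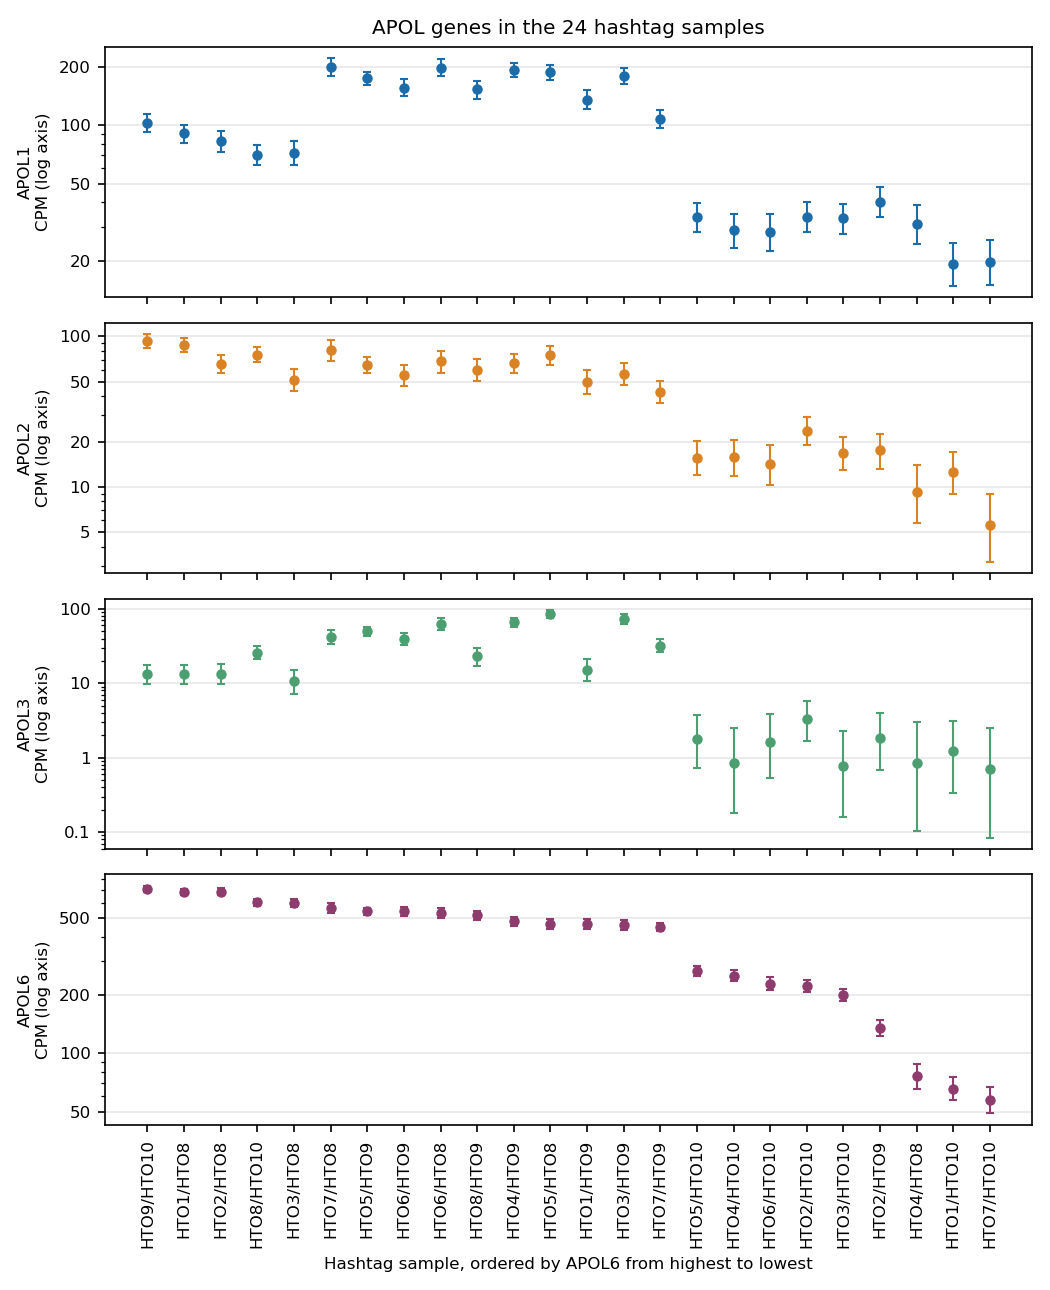
Level of each member in the 24 hashtag samples (CPM, log axis; the same samples in every panel, ordered by APOL6), with exact Poisson 95% intervals of the counts. The 9 samples on the right are the lowest for every member, and the 5 samples on the left, highest for APOL6, are not the highest for APOL1 or APOL3.

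APOL1, the secreted member, had its highest level in HTO7/HTO8 and its lowest in HTO1/HTO10. The highest was 199 CPM (371 UMIs), the median over samples 86.5 CPM and the lowest 19.3 CPM (63 UMIs), a ratio of highest to lowest of 10.3 (7.88 to 13.7). Close to the top, HTO6/HTO8 had 197 CPM, HTO4/HTO9 193 CPM, HTO5/HTO8 187 CPM and HTO3/HTO9 178 CPM, and their ratios to HTO7/HTO8 had intervals that included 1. These samples therefore could not be ordered at this depth. Lower among the upper 15 were HTO9/HTO10 with 103 CPM, HTO1/HTO8 with 90.6 CPM, HTO2/HTO8 with 82.4 CPM, HTO3/HTO8 with 72.0 CPM and HTO8/HTO10 with 70.4 CPM. The next sample down, HTO2/HTO9, had 40.4 CPM, and the remaining 8 were below it. Of the 23 pairs of neighbours in the order, 3 differed beyond their counting interval.

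APOL2, an intracellular member, reached 93.0 CPM in HTO9/HTO10 (335 UMIs) and had its lowest level, 5.56 CPM, in HTO7/HTO10 (16 UMIs). The ratio of these samples was 16.7 (10.2 to 29.6), and the median was 53.3 CPM. Levels in HTO1/HTO8 (88.2 CPM) and HTO7/HTO8 (81.0 CPM) did not differ from the highest beyond their interval. The upper 15 samples lay between 93.0 and 42.8 CPM and the lower 9 between 23.7 and 5.56 CPM. Of the 23 neighbouring pairs, 1 differed beyond its interval, the pair at this gap.

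APOL3, which acts on membranes of bacteria in the cytosol, was close to the detection limit in the 9 lower samples. Its highest level was 85.1 CPM in HTO5/HTO8 (228 UMIs), followed by 73.6 CPM in HTO3/HTO9, 66.3 CPM in HTO4/HTO9 and 62.7 CPM in HTO6/HTO8. In the 9 lower samples it lay between 3.27 CPM and 0.695 CPM, where 3 counts correspond to between 1.26 and 0.768 CPM depending on the sample. The lowest, HTO7/HTO10, held 2 UMIs, and the ratio of HTO5/HTO8 to it was 123 with an interval of 33.5 to 1018. The level in 7 other samples did not differ from that lowest one beyond the counting interval. The highest level was 6.35 times the median of 13.4 CPM, while for APOL1 it was 2.30 times, for APOL2 1.74 times and for APOL6 1.52 times the median.

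APOL6, the member with the BH3-like stretch, fell into several steps. It had 709 CPM in HTO9/HTO10 (2555 UMIs), 686 CPM in HTO1/HTO8, 685 CPM in HTO2/HTO8, 607 CPM in HTO8/HTO10 and 598 CPM in HTO3/HTO8. The first 3 of these could not be ordered, and HTO2/HTO8 exceeded HTO8/HTO10 by a ratio of 1.13 (1.06 to 1.20). HTO3/HTO8 did not exceed HTO7/HTO8, the next sample down, beyond its interval (ratio 1.05, 0.974 to 1.14). The border below these 5 samples was therefore not resolved. The next 10 samples lay between 567 CPM in HTO7/HTO8 and 451 CPM in HTO7/HTO9. Below them came HTO5/HTO10 with 267 CPM, HTO4/HTO10 with 253 CPM, HTO6/HTO10 with 230 CPM, HTO2/HTO10 with 224 CPM and HTO3/HTO10 with 201 CPM. HTO2/HTO9 followed at 135 CPM, and the last 3 samples were HTO4/HTO8 with 76.0 CPM, HTO1/HTO10 with 65.6 CPM and HTO7/HTO10 with 57.3 CPM (165 UMIs). The median was 466 CPM, the ratio of highest to lowest was 12.4 (10.6 to 14.6), and 5 of the 23 neighbouring pairs differed beyond their interval.

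The members did not share the same upper end. The 6 samples with the highest APOL1 were also the 6 with the highest APOL3. By contrast, the 6 highest samples of APOL6 included 1 of the 6 highest of APOL1 and 1 of APOL3, and 4 of the 6 highest of APOL2. The last of the 6 did not exceed the next sample down beyond its interval for any member. These ratios were 1.11 (0.982 to 1.26) for APOL1, 1.03 (0.821 to 1.28) for APOL2, 1.07 (0.789 to 1.45) for APOL3 and 1.04 (0.967 to 1.12) for APOL6. Membership at the cut was therefore not resolved. The 5 samples with the highest APOL6, HTO9/HTO10, HTO1/HTO8, HTO2/HTO8, HTO8/HTO10 and HTO3/HTO8, held between 103 and 70.4 CPM of APOL1, below all of the other 10 upper samples, which held between 199 and 108 CPM. This separation was lost when cells were limited to 2000 genes or more together with no more than 10% mitochondrial UMIs, where HTO9/HTO10 of the 5 had 95.7 CPM and HTO7/HTO9 of the 10 had 87 CPM. With the main filter too, APOL1 in HTO7/HTO9 did not exceed that in HTO9/HTO10 beyond its interval (ratio 1.05, 0.903 to 1.22). For APOL3 the same 5 samples lay between 25.9 and 10.7 CPM and the other 10 between 85.1 and 15.2 CPM, with overlap. For APOL2 they lay between 93.0 and 51.4 CPM and the other 10 between 81.0 and 42.8 CPM, again with overlap.

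A second divergence lay within the lower 9 samples. HTO2/HTO10 to HTO6/HTO10 had between 267 and 201 CPM of APOL6, above the 135 to 57.3 CPM of HTO2/HTO9, HTO4/HTO8, HTO1/HTO10 and HTO7/HTO10. In the same comparison the levels of the other members overlapped: APOL1 had between 33.8 and 28.3 CPM in those 5 samples against 40.4 to 19.3 CPM in the other 4. APOL2 had between 23.7 and 14.1 CPM in the 5 samples against 17.5 to 5.56 CPM in the 4. APOL3 had between 3.27 and 0.783 CPM in the 5 samples against 1.84 to 0.695 CPM in the 4, all near the limit that 3 counts set. IRF1, a transcription factor that interferon gamma induces early and directly, had between 1715 and 943 CPM in the 5 samples and between 89.2 and 60.1 CPM in the 4, and in the upper 15 samples it had between 1682 and 477 CPM. The lowest IRF1 level of these 5 samples was thus above the lowest of the upper 15, while each of the 4 members was below all of the upper 15.

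**Figure D2:**
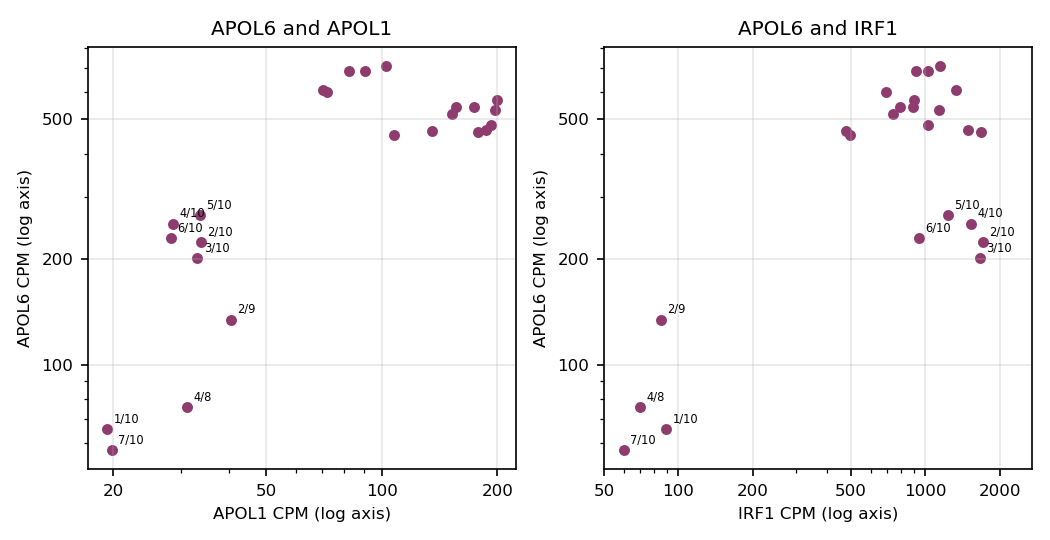
APOL6 against APOL1 (left) and against IRF1 (right) in the 24 hashtag samples (CPM, log axes; each point is 1 sample, and the 9 lower samples are marked with the numbers of their tags). APOL6 is highest in samples with intermediate APOL1, and the samples marked 2/10 to 6/10 have 1715 to 943 CPM of IRF1 with 267 to 201 CPM of APOL6.

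The division of the family's UMIs among its members showed the same divergence within each sample, without reference to the library total. Summed over the 4 members, the level was 918 CPM in HTO9/HTO10, the highest, and 83.4 CPM in HTO7/HTO10, the lowest, a ratio of 11.0 (9.66 to 12.6). The share held by APOL6 was 84.8% in HTO4/HTO10 (exact binomial interval 82.5% to 86.9%) and 57.3% in HTO5/HTO8 (55.2% to 59.4%). In 10 samples it lay between 84.8% and 77.2%, and in the other 14 between 71.2% and 57.3%. The 10 were HTO2/HTO10 to HTO6/HTO10 and the 5 samples with the highest APOL6 level. By point values the share of APOL3 was 3.32% to 1.45% in the 5 samples of highest APOL6 and 1.15% to 0.289% in HTO2/HTO10 to HTO6/HTO10. The intervals overlapped between HTO9/HTO10 (1.45%, 1.07% to 1.92%) and HTO2/HTO10 (1.15%, 0.595% to 1.997%, from 12 UMIs). APOL1 held 26.5% of the family's UMIs in HTO4/HTO8 (21.4% to 32.1%) and 9.04% in HTO8/HTO10 (8.03% to 10.1%). APOL2 held 12.7% in HTO1/HTO10 (9.29% to 16.9%) and 4.92% in HTO5/HTO10 (3.78% to 6.27%). APOL3 held 10.5% in HTO5/HTO8 (9.21% to 11.8%) and 0.289% in HTO4/HTO10 (0.0596% to 0.842%). Counts from the 3′ end are not scaled for transcript length, so these shares are compared between samples and not between genes.

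**Figure D3:**
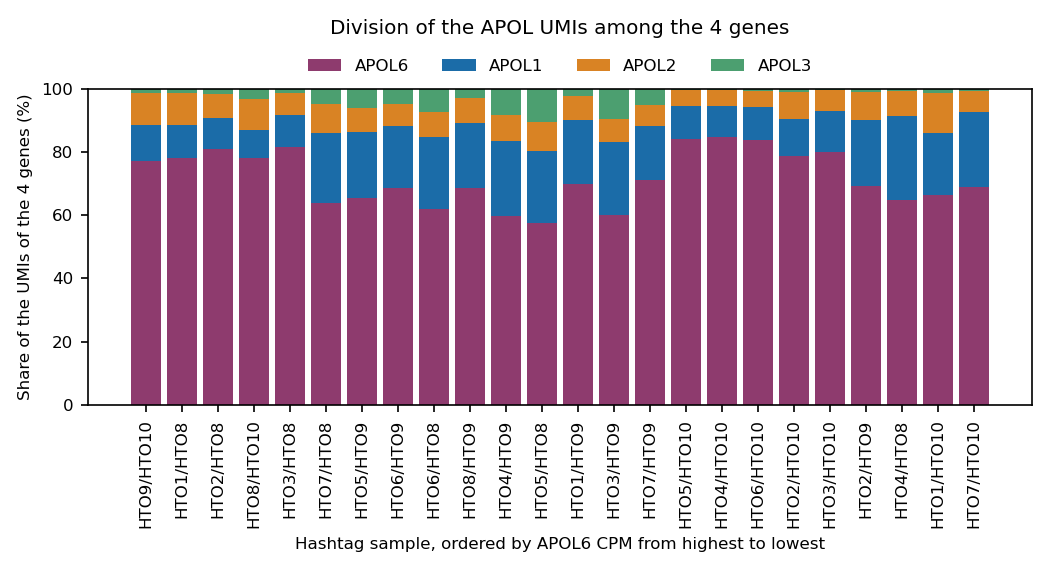
Share of the UMIs of the 4 members held by each (%, stacked to 100) in the 24 hashtag samples, ordered by APOL6 CPM. APOL6 holds 77.2% to 84.8% in 10 samples, which stand at the left end and again between the 16th and the 20th place, and 57.3% to 71.2% in the other 14.

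The genes whose pattern over the 24 samples was most like each member were sought among the other 5766 tested genes, by the root mean square difference of centred log2(CPM + 10). For APOL1 these were RNF213, a large ubiquitin ligase (0.21 log2 units), VAMP5, a vesicle fusion protein (0.24), SAMHD1, which degrades nucleotides and so limits retroviruses (0.25), the nuclear body protein SP110 (0.25) and the immunoproteasome subunit PSMB8 (0.27). APOL2 was nearest to DTX3L (0.28), a ubiquitin ligase, the interleukin-15 receptor chain IL15RA (0.28), PML, which builds nuclear bodies (0.30), the guanylate-binding protein GBP3 (0.33) and the helicase HELZ2 (0.33). APOL3 was nearest to the autophagy receptor OPTN (0.29), IFI35 (0.31), the antiviral GTPase MX1 (0.31), SECTM1 (0.32) and XAF1, which opposes the apoptosis inhibitor XIAP (0.33). For APOL6 they were DTX3L (0.32), its partner PARP9 (0.40), APOL2 (0.40), the transcription factor BATF2 (0.42) and GBP3 (0.43). APOL2 was thus the one member among the nearest 5 genes of another. All 24 points came from 1 pool, and the likeness is a description. Ranked by Spearman's rho in place of the difference, 3 of the 5 genes were among the nearest 5 for APOL1, 2 for APOL2, 1 for APOL3 and 0 for APOL6.

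Neighbouring genes on chromosome 22 had ranges near those of all tested genes. Of 10 genes listed around the family, 6 were tested, with a median range of 0.82 log2 units against 0.74 over all tested genes. Of these 6, 0 ranged by 4-fold or more (4.13% of all tested genes), and 1, the replication helicase subunit MCM5, ranged by 2-fold or more (1.37 log2 units; 26.1% of all tested genes). MYH9, a nonmuscle myosin heavy chain that lies 13.7 kb from APOL1, had 270 CPM in HTO1/HTO10, the highest sample, and 159 CPM in HTO5/HTO9, the lowest, a range of 0.73 log2 units. RBFOX2, a splicing factor between APOL6 and APOL3, had a range of 0.42. HMOX1, TXN2 and EIF3D had ranges of 0.98, 0.62 and 0.91. HTO1/HTO10, the highest sample for MYH9, was the lowest for APOL1. Of 18 other apolipoprotein genes, 0 reached a mean of 20 CPM, and APOE, a lipid carrier, had 20.3 CPM in its highest sample.

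Among genes that interferons or inflammatory signals are known to induce, wide ranges were common. The lists used here were chosen with earlier results of these data known, so their counts are a description and no test. Wide ranges were not limited to such genes. Of 20 tested G2/M cell cycle genes 8 ranged by 4-fold or more, against 4.13% of all tested genes. All 20 had their lowest level in HTO3/HTO9, the sample with the lowest median UMIs per cell and the highest mitochondrial share. Their ranges therefore rest on that sample. Of 5 tested epithelial markers 1 ranged by 4-fold or more, the keratin gene KRT7 (2.70 log2 units). All 23 tested genes of the interferon gamma list ranged by 4-fold or more, against 4.13% of all tested genes, including IRF1 (4.62 log2 units), CXCL10, a T cell attractant (7.26), PSME2, a proteasome activator subunit (2.66), and the tRNA ligase WARS (5.40). Of 21 tested genes of the antiviral list, 15 did, among them ISG15 (2.82), ISG20 (4.36) and IFIT3 (4.52), while IFI27 had 1.67. Of 21 tested NF-kB target genes 17 did, as did all 3 tested genes of antigen presentation by MHC class II. In the cell death list, 3 of 12 tested genes ranged by 4-fold or more: the caspase gene CASP4 had a range of 2.12, while PMAIP1 (1.42), BID (0.94) and BAX (0.80), genes of the BCL2 family, were below it. Some of these genes had a median under 20 CPM and so passed the minimum mean only through their higher samples. Without them, 20 of 20 genes of the interferon gamma list ranged by 4-fold or more, 13 of 19 of the antiviral list, 13 of 17 of the NF-kB list, 1 of 1 of the MHC class II list and 2 of 11 of the cell death list, against 200 of 5662 genes in all (3.53%). For CD74, the invariant chain of MHC class II, 5 of its 6 highest samples were shared with APOL1 and with APOL3, and 0 with APOL6.

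Depth and RNA quality moved with part of this order. The 6 samples with the highest APOL1, which are also those with the highest APOL3, had median mitochondrial shares of 13.8% to 11.2%, and the 6 with the lowest APOL1 had 10.3% to 8.67%. For APOL6 the spans were 11.7% to 9.51% in its 6 highest samples and 10.2% to 8.67% in its 6 lowest, with overlap. Median UMIs per cell lay between 13482 and 9389 in the 6 highest APOL1 samples and between 14795 and 13323 in the 6 lowest. When cells were restricted to those with 2000 genes or more and no more than 10% mitochondrial UMIs, the range was 2.65 log2 units for APOL1, 2.82 for APOL2, 3.0 for APOL3 and 3.50 for APOL6. HTO3/HTO9 had the lowest depth and the highest mitochondrial share, and also the lowest summed level of 20 G2/M cell cycle genes (1156 CPM, against 4961 CPM in HTO7/HTO10, the highest), but it was neither the highest nor the lowest sample of any member, so the 4 ranges were identical without it. Of the 8 epithelial markers, EPCAM, KRT7, KRT8, KRT18 and KRT19 had means of at least 20 CPM, and CDH1, PAX8 and MUC16 did not. The 8 T cell markers summed to 1.07 CPM in their highest sample and to 0 in their lowest, with CD3E, CD3G, CD2, PTPRC and NKG7 at 0 UMIs. Samples held 272 to 137 cells and 3904112 to 1863154 UMIs.

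Each member was detected in a part of the cells. A UMI of APOL6 was found in 87.9% of 5298 cells (exact binomial interval 87.0% to 88.8%), of APOL1 in 55.0% (53.7% to 56.4%), of APOL2 in 40.7% (39.4% to 42.0%) and of APOL3 in 21.0% (19.9% to 22.1%). Because detection depends on depth, each cell was also thinned to 3000 UMIs, which left out 37 shallower cells, at most 4 of them from 1 sample. The shares were then 60.4% for APOL6, 22.5% for APOL1, 12.9% for APOL2 and 6.5% for APOL3. After thinning, APOL6 was found in 84.5% of the cells of HTO9/HTO10 (79.3% to 88.9%) and in 14.4% of those of HTO7/HTO10 (9.83% to 19.96%), where the unthinned shares were 99.6% and 47.8%. APOL1 was found in 42.3% of thinned cells of HTO7/HTO8 (33.9% to 51.1%) and in 4.17% of those of HTO1/HTO10 (1.92% to 7.76%), with unthinned shares of 82.5% and 20.6%. The thinned share of APOL2 was 24.3% in HTO9/HTO10 (19.0% to 30.2%) and 1.49% in HTO7/HTO10 (0.307% to 4.28%), against unthinned shares of 72.5% and 7.88%. For APOL3 it was 20.6% in HTO5/HTO8 (15.6% to 26.4%) and 0 of 202 cells in HTO7/HTO10, for which the exact upper limit is 1.81%, and the unthinned shares were 59.6% and 0.985%. The pool holds no cell type known to lack these genes, so free RNA in the droplets cannot be told apart from low expression, and the lowest samples mark the level that free RNA could at most give there.

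**Figure D4:**
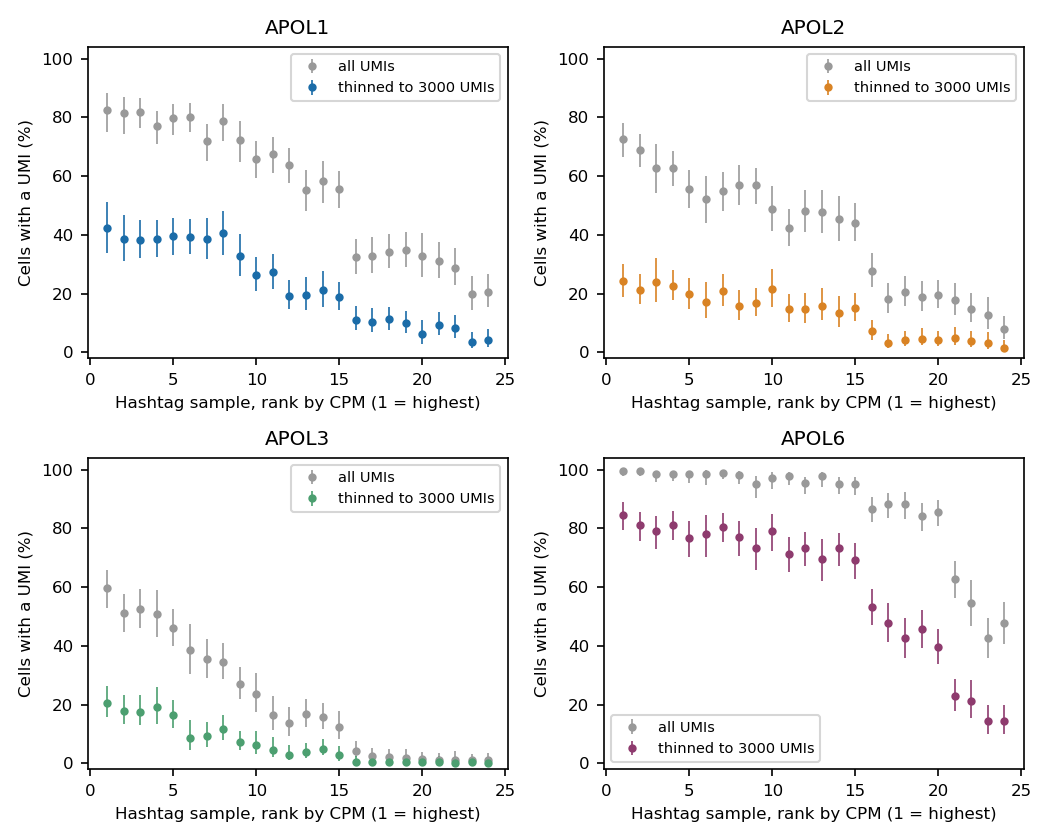
Share of cells with at least 1 UMI of each member (%) in the 24 hashtag samples, ranked by CPM within each panel, from all UMIs (grey) and after thinning each cell to 3000 UMIs (colour), with exact binomial 95% intervals. With all UMIs the share of APOL6 is 95% or more in its first 15 samples, and after thinning it is at most 84.5%.

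Counts varied more between cells than Poisson sampling gives. The variance of the counts, divided by that of Poisson sampling at each cell's depth, was 4.25 for APOL6, 2.46 for APOL1, 1.64 for APOL3 and 1.43 for APOL2 over the pool. Measured within hashtag samples it was 2.58 for APOL6, 1.89 for APOL1, 1.26 for APOL3 and 1.17 for APOL2. The 45 UMIs of APOL6, 18 of APOL1, 9 of APOL3 and 8 of APOL2 were the most in any 1 cell. After thinning, at least 2 members were found together in 50.4% of 137 cells of HTO7/HTO8, the highest share, and in 0.495% of 202 cells of HTO7/HTO10, the lowest.

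In most samples with enough cells, APOL6 was found in a higher share of the cells that held APOL1 or APOL2. Samples were used where at least 20 thinned cells held the first member of a pair and at least 20 did not, the first being the one found in fewer cells of the pool. The share of cells with APOL6 was higher beside APOL1 in 16 of 20 samples, with a median over samples of 75.5% in cells with APOL1 and 71.9% in cells without. For APOL6 beside APOL2 it was higher in 12 of 15 samples, with medians of 83.3% in cells with APOL2 and 75.4% in cells without. The share of cells with APOL1 was higher beside APOL2 in 10 of 15 samples (medians 36.7% in cells with APOL2 and 34.3% without). APOL3 gave enough cells in 6 samples. Beside it APOL1 was higher in 5 of 6 (medians 40.5% in cells with APOL3 and 37.7% without). Taken the other way, with APOL1 as the first member, 20 samples had enough cells. The share of cells with APOL3 was then higher beside APOL1 in 7 of these samples and lower in 13. The direction for this pair was therefore not settled. Beside APOL3, APOL6 was higher in 4 of 6 (77.3% with and 72.4% without) and APOL2 in 1 of 6 (15.4% with and 18.2% without). These differences are a description, since cells of 1 culture are not replicates.

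A rare set of cells with the hair keratin gene KRT81 held the members in other proportions. It comprised 232 kept cells with at least 5 UMIs and at least 300 CPM of KRT81, of which 141 had a hashtag sample, at most 10 in any 1. In these 141 cells APOL1 had 17.0 CPM (42 UMIs), against 97.1 CPM in the other cells weighted to the same samples, a ratio of 0.175 (0.126 to 0.236). APOL2 had 46.8 CPM in the KRT81-high cells and 50.2 CPM in the others, a ratio of 0.933 whose interval, 0.771 to 1.12, included 1. APOL3 had 10.5 CPM in the KRT81-high cells and 22.5 CPM in the others (0.466, 0.305 to 0.683), and APOL6 had 214 CPM in the KRT81-high cells and 449 CPM in the others (0.477, 0.438 to 0.52). Ratios of IRF1 (0.62, 0.589 to 0.653) and CXCL10 (0.558, 0.526 to 0.592) lay above the interval of APOL6. NFKBIA had a ratio of 0.551 (0.501 to 0.605) and SOD2 of 0.813 (0.756 to 0.873). That of CD74 (0.176, 0.149 to 0.207) was near that of APOL1. KRT81-high cells had more UMIs, a median of 17366 against 13153 in the others, and a lower median mitochondrial share (5.72% against 10.6%). They had 9.28 times the EPCAM level (342 CPM against 36.9 CPM). KRT8, another epithelial marker, was lower in them, with 555 CPM against 699 CPM (ratio 0.794, 0.753 to 0.837). Of the 232 KRT81-high cells 141 had a hashtag sample, against 5298 of all 6408 kept cells (82.7%). Cells carrying a comparably strong further tag are among those without one. The nature of the KRT81-high cells, and the part of doublets among them, were not tested. The intervals treat the UMIs as independent and cover neither cells nor cultures.

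**Figure D5:**
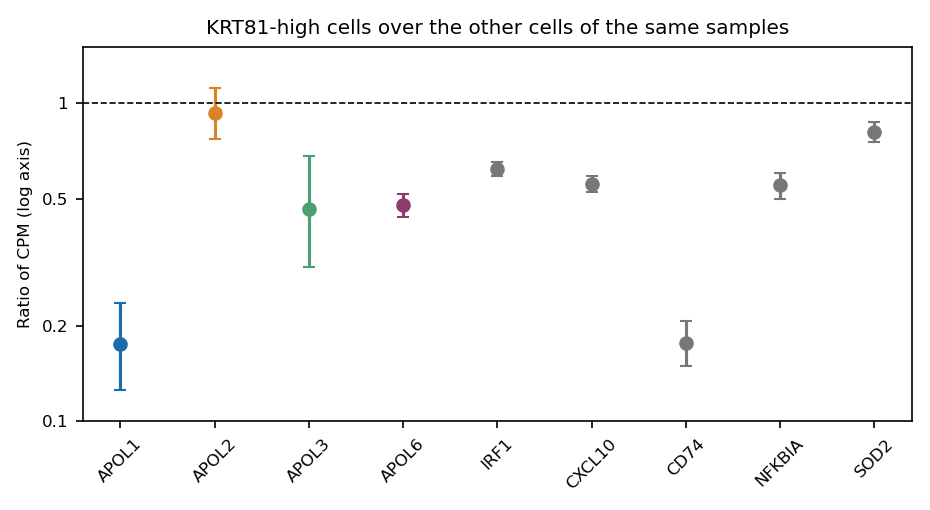
Ratio of CPM in the 141 KRT81-high cells to that in the other cells of the same hashtag samples (log axis), for the 4 members (colours) and 5 comparison genes (grey), with Poisson 95% intervals of the counts in the KRT81-high cells; the dashed line marks equal levels. APOL1 lies at 0.175 and APOL2 at 0.933.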

How the data were processed

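Droplet-based 3′ single-cell RNA sequencing with hashtags was measured in 1 pool. The deposited matrix holds UMI counts, not normalized, made by the authors with Cell Ranger, version 5.0.1 per the file headers. GRCh38 and version 2.1.1 are named in the submitters' processing notes. For annotation version and cell-calling settings: not given in the sources used here. The matrix has 10660 barcodes, all with 1 suffix and 0 of them repeated. The labels list 4 libraries, 2 of gene expression and 2 of hashtags. The matrix names none of them, so cells could not be assigned to a library.

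Kept barcodes (6408) had 1000 genes or more and no more than 20% mitochondrial UMIs. A cell was given to a tag pair where both highest tags had at least 3 times the next one (5298 cells, 82.7%). The 24 pairs ranking first in 100 or more barcodes made the hashtag samples, and any other pair had at most 17 barcodes. Cells carrying a comparably strong further tag stayed without a sample; doublets were not otherwise removed. UMIs were summed per hashtag sample and scaled to CPM. Intervals are exact Poisson for counts, conditional binomial for ratios and exact binomial (Clopper-Pearson) for shares, at 95%. Genes averaging 20 CPM or more were tested for range with a pseudocount of 10 CPM. The word tested means entered in that description, as no statistical test was run: the labels tie no tag pair to a dose or time, and each condition had 1 culture. The planned search for promoter motifs was not run.

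The named genes are the 4 members, the listed neighbours and comparison genes, for each member the 5 most alike genes, and up to 4 members of each other list with the highest mean, except for a comparison gene not reported here. The sample sets described by name, the KRT81-high comparison within samples, the list counts without genes of low median, and HTO3/HTO9 as a sample to leave out were chosen after values were seen. Members and gene lists were chosen with earlier results of these data known. Alternatives changed the pseudocount, cell filter, tag margin, scaling (a total without mitochondrial genes, and TMM factors from edgeR 4.0.16), the minimum mean and the samples. Scripts used Python 3.11.15, numpy 2.4.6, scipy 1.17.1 and pandas 2.3.3, and the range was tested on simulated data.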

Additional observations from a re-analysis of the deposited data

Results flagged for a closer look

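Barcodes and cells that entered no hashtag sample also held UMIs of the family, above the limit that a count of 0 allows. They come from the same pool as the cells described above, so passing that limit says little by itself. In the 4252 barcodes left out by the filters, the 4 members summed to 592.5 CPM (limit 0.254 CPM), with 431 CPM of APOL6, 102 CPM of APOL1, 43.7 CPM of APOL2 and 15.5 CPM of APOL3. These barcodes had a median mitochondrial share of 53.0%. The 1191 of them left out for the mitochondrial share alone had 802.8 CPM of the family, and the other 3061, with too few genes, had 320.5 CPM. In the 1110 kept cells without a hashtag sample the members summed to 524.6 CPM (limit 0.147 CPM), against 565.1 CPM in the cells with one. The makeup of either set by condition is not known, and the cause of the differences was not tested.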

How the results depend on the processing

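No paired analysis was possible because the labels put no sample in a group. Over 12 alternatives, 40 of 48 recomputed ranges moved by less than their counting interval, and 45 of 48 were 4-fold or more. The alternative without HTO3/HTO9 was chosen after seeing the data. Its 4 ranges could not move, since HTO3/HTO9 was neither the highest nor the lowest sample of any member. They are counted among the 40 and the 45. With a pseudocount of 1 CPM the range was 3.30 for APOL1, 3.84 for APOL2 and 5.67 for APOL3. With 50 CPM it was 1.85 for APOL1, 1.36 for APOL2, 1.41 for APOL3 and 2.82 for APOL6, so that 3 of the 4 were under 4-fold; a larger pseudocount lowers the range of any gene by its construction. Without its lowest sample, the range of APOL2 was 2.42. The count of genes with a range of 4-fold or more, 238, was 402 with a pseudocount of 1 CPM, 82 with 50 CPM, 94 with a mean of at least 100 CPM and 168 without HTO3/HTO9. Thinning each cell to 3000 UMIs gave shares of cells with a UMI of 22.5% for APOL1, 12.9% for APOL2, 6.5% for APOL3 and 60.4% for APOL6. A total without mitochondrial genes shifted the median of all genes by between 0.17 and 0.11 log2 units in every sample, and ranges moved with it by less than their interval. The same 9 samples were the lowest 9 for all 4 members in 7 of 7 settings of cells, tag margin and scaling. By point values, APOL6 kept both of its described separations in 7 of 7, while that of APOL1 among the upper 15 held in 6. For both genes the separation among the upper 15 lay within counting error at its border. The sample at the top of APOL1 was the same in 3 of those 7 settings, and that at its bottom in 6. Depth limits APOL3, which had 12 or fewer UMIs in each of the 9 lower samples.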
